A study of Mus musculus with 28 samples.

Results

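The genes described here are 10 that are widely used to identify astrocytes: Gfap, Aqp4, Aldh1l1, Gja1, Gjb6, Sox9, S100b, Fgfr3, Glul and Slc4a4. They were chosen by name, as known markers of the cell type and without a threshold on any value, from the 22919 genes named in comparison tables of nascent RNA. There were 7 such tables, and the one for the shRNA in vehicle names no genes, so that its rows were matched to genes by mean count. All 10 were found in every table and all 10 had a test, as did 21192 genes in all. A mean count of 50 or more after normalization was reached by 8 of them, and the exceptions were S100b and Gjb6.

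Astrocytes take up glutamate and potassium released by neurons, convert glutamate to glutamine, and carry water and ions between the synapse and the vessel wall. They are coupled to each other by gap junctions. Much of what they do follows neuronal activity, which reaches them through transmitter receptors, potassium and growth factors. Gfap encodes the intermediate filament of the astrocyte skeleton, and Glul encodes glutamine synthetase. Sox9 is a transcription factor that starts and maintains glial identity, and Fgfr3 is a receptor for fibroblast growth factors. Aqp4 is the water channel of astrocyte end-feet, Slc4a4 a sodium bicarbonate cotransporter, and Gja1 and Gjb6 encode the connexins 43 and 30 of astrocyte gap junctions. Aldh1l1 is a folate-metabolising dehydrogenase and S100b a calcium-binding protein. Sox9, S100b and Glul are also transcribed by cells of the oligodendrocyte lineage.

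Nascent RNA was measured by Bru-seq, in which RNA made during a brief bromouridine pulse is pulled down and sequenced, so that the reads report recent transcription rather than stored RNA. The cultures came from cortex and hippocampus of mouse embryos at embryonic day 18, pooled over several embryos per replicate, and held neurons and glia. On day in vitro 14 the cultures were infected with lentivirus for either a control shRNA, termed shCtrl, or shRai1, which targets Rai1, a chromatin-associated regulator of transcription. On day 17 the cells received vehicle (water), 1 µM tetrodotoxin (TTX), which blocks sodium channels and silences firing, or 20 µM bicuculline (BIC), which blocks inhibitory GABA-A receptors and raises firing. Treatment lasted 4 hours, with 2 mM bromouridine in the last 20 minutes. There were 3 libraries in each of the shCtrl TTX, shRai1 vehicle, shRai1 TTX and shRai1 BIC groups, and 2 in each of the shCtrl vehicle and shCtrl BIC groups. The virus was carried by every culture, including the controls, and no uninfected culture was compared. The 12 RAI1 ChIP-seq samples were not analysed here.

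Values per library were not in the files used here. Each comparison therefore rests on the log2 change, its standard error (SE) and the adjusted p that the authors' DESeq2 fit gave, and each control level on 1 pooled value per condition. Rai1 itself was not detectably lower in the shRai1 cultures: in the authors' deposited tables its log2 change was 0.16 (SE 0.07, adjusted p = 0.357) in vehicle, −0.12 (SE 0.06) under TTX and 0.03 (SE 0.07) under BIC. An shRNA acts on mature RNA, which this assay hardly measures, so nascent Rai1 gave no check of the knockdown label. The shRNA libraries are called shRai1 here by their labels.

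In shCtrl cultures given vehicle, 9 of the 10 genes were listed at 1 FPKM or more, where FPKM is fragments per kilobase of gene, scaled by sequencing depth. S100b is among these 9, but its mean normalized count was only 9.28, so its level and its place in the order are uncertain. The bounds given with each level are those of the authors' table, which does not state their confidence level. Glul was highest, at 191 FPKM (bounds 147 to 235), followed by Gfap at 81.7 FPKM (63.3 to 100) and Sox9 at 35.5 FPKM (27.4 to 43.5). The bounds of these 3 neighbours in the order did not overlap, nor did those of Sox9 and Slc4a4. A second group lay close together, with Slc4a4 at 15.6 FPKM, Fgfr3 at 12.3, Aldh1l1 at 11.8, Gja1 at 10.5, S100b at 8.41 and Aqp4 at 5.68 FPKM. Each neighbour in that group overlapped the next within its bounds, while Slc4a4 (lower bound 11.97) lay above S100b (upper 11.6) and the bounds of Slc4a4, Fgfr3, Aldh1l1 and Gja1 lay above those of Aqp4 (upper 7.36). Gjb6 was nearly silent, at 0.0784 FPKM with a lower bound of 0. Glul stood at the 99.4th percentile of all listed genes by FPKM, Gfap at the 97.9th and Aqp4 at the 53.9th.

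**Figure D1:**
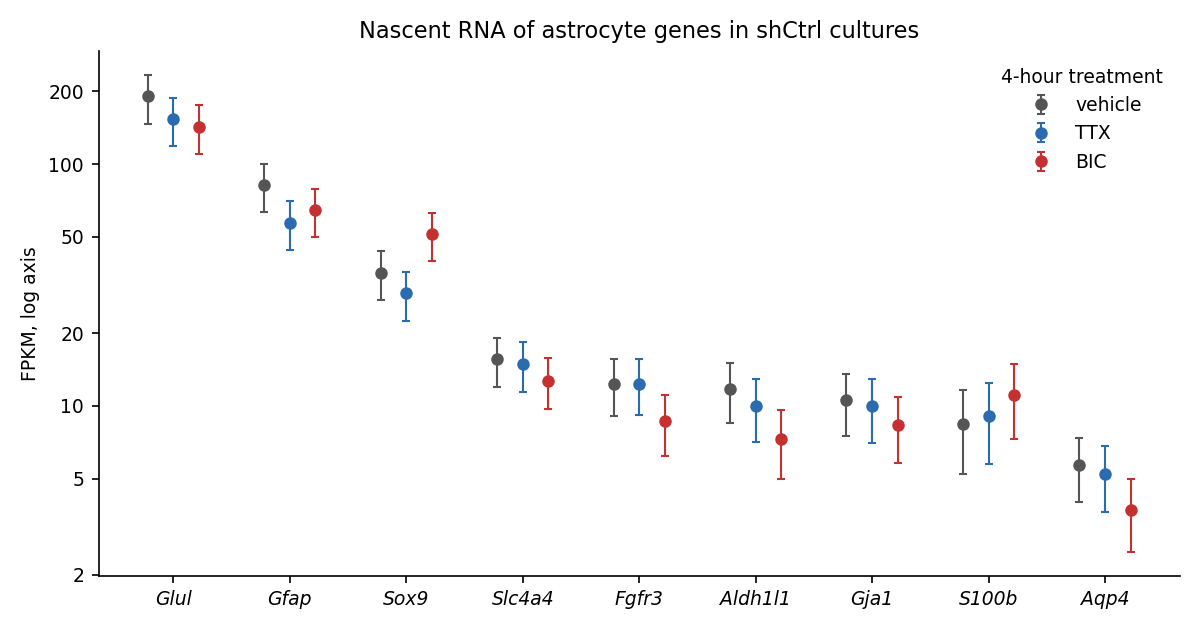
Pooled FPKM (log axis) of 9 astrocyte genes in shCtrl cultures after vehicle (grey), TTX (blue) or BIC (red), with the bounds of the authors' table as bars. Gjb6, at 0.0784 FPKM in vehicle, is left out. Sox9 is highest in BIC (51.3 FPKM) and Gfap lowest in TTX (57.1 FPKM).

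The pooled control levels differed between treatments by gene, as the plot of FPKM by treatment shows. Gfap was at 81.7 FPKM in vehicle, 57.1 in TTX and 64.5 in BIC. Sox9 was at 35.5 FPKM in vehicle, 29.2 in TTX and 51.3 in BIC. Glul was at 191 FPKM in vehicle and at 153 and 143 after TTX and BIC. The bounds overlapped with those of vehicle for each of these values, and for Sox9 those of TTX (22.5 to 35.9) lay below those of BIC (39.8 to 62.8). In the same order Aqp4 was at 5.68, 5.23 and 3.72 FPKM, and Fgfr3 was at 12.3, 12.4 and 8.63 FPKM. Aldh1l1 was at 11.8, 10.03 and 7.29 FPKM, Gja1 at 10.5, 9.94 and 8.32 FPKM, and Slc4a4 at 15.6, 14.9 and 12.7 FPKM. S100b was listed the other way, at 8.41, 9.08 and 11.1 FPKM, with wide bounds and a low count that leave these values uncertain. Gjb6 was at 0.0784 and 0.314 FPKM in vehicle and TTX and listed at 0 in BIC. The sum over the 10 genes was 372 FPKM in vehicle and 301 and 310 after TTX and BIC. Glul and Gfap held most of that sum and most of its fall after TTX. From vehicle to BIC these genes together fell by more than the whole sum did, while Sox9 and S100b were higher. The sum therefore mainly follows Glul and Gfap and does not describe the 10 genes alike. In bulk RNA, fewer astrocytes and less nascent RNA per astrocyte cannot be told apart.

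The genes differ in length and in the reads behind each value. Slc4a4 spans 352 kb (chr5:89316285-89668681) and had a mean normalized count of 9122, while Sox9 spans 5.55 kb (chr11:112643524-112649071) with a count of 553. Gfap (chr11:102748650-102758514) had a mean normalized count of 924, Glul (chr1:155747056-155756853) 2640 and Fgfr3 (chr5:34064373-34079717) 436. Coordinates are those of the authors' table, with starts written 1-based, and mm9 is the only build in the submitters' processing notes. The interval of Glul holds the microRNA gene Mir8114, and no other listed gene overlapped the remaining 9. Aqp4 and Gja1 had mean normalized counts of 167 and 177, S100b of 9.28 and Gjb6 of 1.90. For S100b the count per kilobase and FPKM was 0.130, against 1.38 to 2.58 in the other 9, so its count and its FPKM do not describe the same quantity of RNA and its values are uncertain.

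Start-site windows were read to show the sequence at which transcription of the 2 most abundant identity genes begins. Windows of 250 bases before and 50 after the start, taken from RefSeq (GRCm38.p6), were searched for 8 of the 10 genes. Aqp4 and Sox9 had no window in the search, so their start sites are not described. The sequences below run 5′ to 3′ in the direction of transcription, and capitals mark a STAT-type motif, TTCNNNGAA, the kind of site bound by STAT transcription factors. The Gfap window is chr11:102897151-102897450 on the minus strand, and the Glul window is chr1:153899679-153899978 on the plus strand.
Gfap: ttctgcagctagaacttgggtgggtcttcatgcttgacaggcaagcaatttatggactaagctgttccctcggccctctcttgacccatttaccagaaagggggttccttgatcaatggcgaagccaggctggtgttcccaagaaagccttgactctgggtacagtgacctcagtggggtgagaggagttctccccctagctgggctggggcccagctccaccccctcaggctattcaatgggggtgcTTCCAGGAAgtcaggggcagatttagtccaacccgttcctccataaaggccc
Glul: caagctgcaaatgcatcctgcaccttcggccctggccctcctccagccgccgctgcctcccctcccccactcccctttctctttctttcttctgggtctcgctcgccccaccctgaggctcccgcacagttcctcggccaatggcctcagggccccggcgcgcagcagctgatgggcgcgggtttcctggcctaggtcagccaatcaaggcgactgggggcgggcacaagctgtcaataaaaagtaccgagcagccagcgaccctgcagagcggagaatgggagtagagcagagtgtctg
The motif in the Gfap window starts at base 2 upstream of the start. It was present in 8.30% of 32851 windows of the same length, searched on both strands. The Glul window holds none of the 7 motifs searched, and differs from that of Gfap in base composition, with 64.3% G or C and 17 CpG dinucleotides against 55.7% and 3. The median over all windows was 52.7% G or C. The other motifs were AP-1 (TGANTCA, in 7.81% of windows), CRE (TGACGTCA, 1.79%), the shorter TGACG, which a full CRE also holds (20.8%), an E-box (CACGTG, 7.15%), a SOX core (AACAAT, 10.7%) and TATAAA (13.6%). Among the 10 windows of the 8 genes, Gja1 held the only AP-1 match, 19 bases upstream of its start, and the shorter CRE motif at 201 and 159 bases upstream. These matches describe letters and not bound sites.

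Silencing the network with TTX lowered Gfap, and no other identity gene passed over both arms together. Over both shRNA arms, which share no library, the log2 change of Gfap was −0.43 (SE 0.07, adjusted p = 7.02e-08), computed here with a Wald test (two-sided, Benjamini-Hochberg). Of the 10 identity genes 1 fell and 0 rose, against 17.5% of 18241 genes that fell and 15.5% that rose. In the authors' deposited tables Gfap changed by −0.56 (SE 0.11, adjusted p = 4.64e-06) in shCtrl and by −0.29 (SE 0.10, adjusted p = 0.0123) in shRai1. Gfap was thus lower under TTX in each arm by the authors' own test. Aldh1l1 had a mean change of −0.10 (SE 0.06, adjusted p = 0.186) and Slc4a4 one of −0.11 (SE 0.06, adjusted p = 0.185). For Fgfr3 the mean was −0.07 (95% interval −0.21 to 0.08), and for Gja1 0.02 (−0.20 to 0.23).

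In the shCtrl arm TTX also lowered Glul and Sox9. The authors' deposited table gives −0.26 (SE 0.08, adjusted p = 0.00469) for Glul and −0.34 (SE 0.12, adjusted p = 0.0176) for Sox9. With Gfap, 3 of 9 identity genes with an adjusted p fell in shCtrl and 0 rose, where 14.9% of all genes fell and 11.8% rose. With shRai1, the authors' deposited table gives 0.14 (SE 0.07, adjusted p = 0.128) for Glul and 0.08 (SE 0.11, adjusted p = 0.612) for Sox9. Aqp4 rose in that arm by 0.34 (SE 0.14, adjusted p = 0.0434) in the authors' deposited table, against −0.18 (SE 0.15, adjusted p = 0.445) in shCtrl. In shRai1, 1 of 9 identity genes thus rose and 1 fell, where 13.7% of all genes rose and 16.8% fell. Of the oligodendrocyte-lineage markers under TTX, 4 of 12 fell and 1 rose in shCtrl and 7 rose and 0 fell in shRai1, per the authors' deposited tables. The 7 such markers with a count of at least 50 had a median of −0.50 in shCtrl and 0.47 in shRai1, and their part in the values of Glul and Sox9 was not tested. Over the 8 identity genes with a count of at least 50 the median was −0.13 in shCtrl and 0.00 in shRai1, beside −0.01 in each arm over 12333 genes with such a count.

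**Figure D2:**
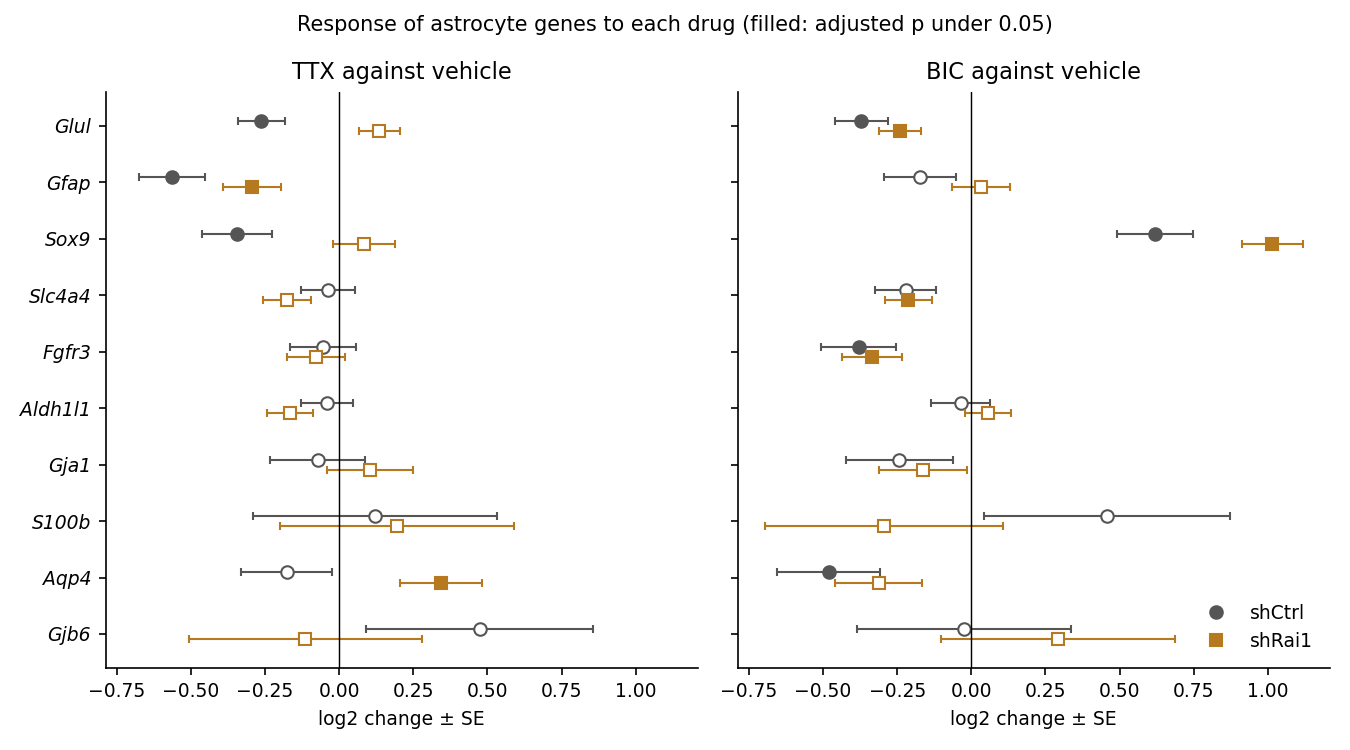
Log2 change with its SE for the 10 astrocyte genes under TTX (left) and BIC (right) against vehicle, in shCtrl (grey circles) and shRai1 (brown squares) cultures, from the authors' deposited tables. Filled symbols have an adjusted p under 0.05. Gfap is lower under TTX in each arm, and Sox9 is higher under BIC in each arm.

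When activity was raised with BIC, Sox9 rose while Glul, Fgfr3, Aqp4 and Slc4a4 fell. Over both arms the log2 change of Sox9 was 0.82 (SE 0.08, adjusted p = 4.52e-22), the largest of the 10. Glul changed by −0.31 (SE 0.06, adjusted p = 2.56e-07) and Fgfr3 by −0.36 (SE 0.08, adjusted p = 3.57e-05). The water channel Aqp4 changed by −0.40 (SE 0.11, adjusted p = 0.00141) and the cotransporter Slc4a4 by −0.22 (SE 0.07, adjusted p = 0.00258). In all, 1 of 10 identity genes rose and 4 fell, where 22.4% of all genes rose and 23.6% fell. The share that passed in either direction was thus near that of all genes. The median over the 8 genes with a count of at least 50 was −0.21, beside −0.04 over all genes with such a count.

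Within the arms, Sox9 was the identity gene with the strongest response to BIC. Its change in the authors' deposited tables was 0.62 (SE 0.13, adjusted p = 1.09e-05) in shCtrl and 1.02 (SE 0.10, adjusted p = 1.24e-21) in shRai1. Fgfr3 fell by nearly the same amount in each arm, with −0.38 (SE 0.13, adjusted p = 0.00942) in shCtrl and −0.33 (SE 0.10, adjusted p = 0.00294) in shRai1, per the authors' deposited tables. Glul changed in the authors' deposited tables by −0.37 (SE 0.09, adjusted p = 0.00015) in shCtrl and −0.24 (SE 0.07, adjusted p = 0.00191) in shRai1. These 3 genes passed the authors' test in each arm. In the authors' deposited tables Aqp4 passed in shCtrl (−0.48, SE 0.17, adjusted p = 0.0191) and not in shRai1 (−0.31, SE 0.15, adjusted p = 0.0717). Slc4a4 had −0.22 (SE 0.10, adjusted p = 0.0804) in shCtrl and −0.21 (SE 0.08, adjusted p = 0.0226) in shRai1, again per the authors' deposited tables. Between the arms the values of Aqp4 and Slc4a4 differed by less than their SE of the difference. In each arm 1 of 9 identity genes rose and 3 fell, where 17.4% of all genes rose and 17.0% fell in shCtrl, and 21.3% rose and 21.3% fell in shRai1.

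Gfap, Aldh1l1 and Gja1 did not pass under BIC. Over both arms Gfap had a log2 change of −0.07 (95% interval −0.22 to 0.08, adjusted p = 0.518) and Aldh1l1 of 0.01 (−0.11 to 0.13, adjusted p = 0.927). Gja1 had −0.20 (95% interval −0.43 to 0.03, adjusted p = 0.150), a value near that of Slc4a4 with a wider error. For the low genes S100b and Gjb6 the intervals were wide, from −0.48 to 0.65 and from −0.39 to 0.66, so that no response of either was detectable at this depth. For Aldh1l1 the 2 kinds of value differed: its log2 ratio of pooled FPKM was −0.69 for BIC over vehicle in shCtrl, while its log2 change in the authors' deposited table was −0.04 (SE 0.10). The cause of this difference was not tested. For Sox9 the same pair was 0.53 and, in the authors' deposited table, 0.62, and for Glul −0.42 and −0.37.

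The drugs can be set side by side, with no test since the responses share the vehicle libraries. The change under BIC minus that under TTX, averaged over the arms, was 0.95 for Sox9, with 0.96 in shCtrl and 0.93 in shRai1. It was 0.36 for Gfap, with 0.39 and 0.33. It was negative for Aqp4 (−0.48), Fgfr3 (−0.29), Glul (−0.24), Gja1 (−0.22) and Slc4a4 (−0.11), and 0.11 for Aldh1l1. Sox9 and Gfap were thus the identity genes whose value was higher under BIC than under TTX by at least 0.1 in both arms, and Aqp4, Fgfr3, Glul and Gja1 those lower by at least 0.1 in both.

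Glul in vehicle was the only identity gene that passed for the Rai1 shRNA. In the authors' deposited table Glul changed by −0.29 (SE 0.08, adjusted p = 0.0324) in vehicle, 1 of 8 identity genes with an adjusted p, where 0.857% of all genes passed and 0.730% were lower. Sox9 had −0.29 (SE 0.12, adjusted p = 0.275), Gfap −0.27 (SE 0.11, adjusted p = 0.288) and Aqp4 −0.34 (SE 0.15, adjusted p = 0.374) in the authors' deposited table. All 8 genes with a count of at least 50 had a value below 0 there, with a median of −0.26 beside −0.01 over all genes with such a count. The 2 shCtrl vehicle libraries are the reference for this comparison and for both shCtrl drug responses, so the values are not independent of those above.

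In TTX and in BIC none of the 10 identity genes passed for the shRNA, where 0.0283% and 0.00944% of all genes did. The authors' DESeq2 test had unadjusted p-values under 0.05 for Slc4a4 in TTX (−0.19, SE 0.08, p = 0.0175 in the authors' deposited table) and for Glul in BIC (−0.16, SE 0.08, p = 0.0401 in the authors' deposited table). Glul in TTX had 0.11 (SE 0.07) in the authors' deposited table, so its sign differed between treatments. Averaged over the treatments, 0 of 10 passed by the Wald test, beside 0.00548% of all genes. The value for Glul was −0.12 (SE 0.04, unadjusted p = 0.00752, adjusted p = 1.00), the only unadjusted p under 0.05 among the 10.

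**Figure D3:**
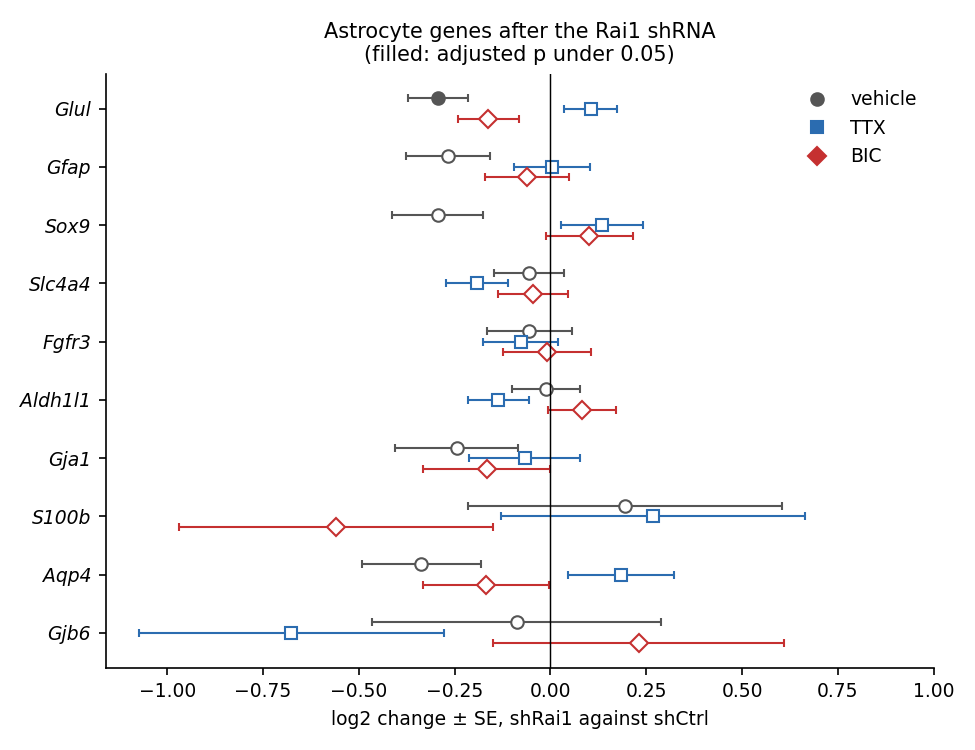
Log2 change with its SE between shRai1 and shCtrl cultures for the 10 astrocyte genes in vehicle (grey circles), TTX (blue squares) and BIC (red diamonds), from the authors' deposited tables. Glul in vehicle, at −0.29, is the only filled symbol (adjusted p under 0.05). The bars of S100b and Gjb6 are the widest.

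The arms differed in the response of Glul to TTX. The shRai1 response minus the shCtrl response was 0.40 (SE 0.10, adjusted p = 0.0227), 1 of 10 identity genes where 0.943% of all genes passed. Sox9 had 0.43 (SE 0.16, unadjusted p = 0.0071, adjusted p = 0.231) and Aqp4 0.52 (SE 0.21, unadjusted p = 0.0117, adjusted p = 0.295), so the difference between arms seen for them did not pass. For Gfap the difference was 0.27 (SE 0.15, adjusted p = 0.613). In BIC 0 of 10 passed by the same Wald test, where 0.0219% of all genes did. Sox9 had 0.40 there (SE 0.16, unadjusted p = 0.0161) and was the only gene of the 10 with an unadjusted p under 0.05. The difference in the TTX response equals the shRNA effect in TTX minus that in vehicle, so it draws on the same shCtrl vehicle libraries as the shRNA effect on Glul.

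Some markers of the oligodendrocyte lineage and some activity-regulated genes also passed in these comparisons. In vehicle 4 of 10 lineage markers with an adjusted p were lower in shRai1, where 0.730% of all genes were, among them Pdgfra, the receptor that marks precursor cells, with −1.37 in the authors' deposited table. The 7 lineage markers with a mean count of at least 50 had a median log2 change of −0.78. Their TTX responses differed between the arms for 6 of 13, all higher in shRai1, where 0.943% of all genes differed, with 1.86 for Pdgfra and a median of 1.101 over the same 7. Of 6 activity-regulated genes 2 were lower in shRai1 vehicle, with a median of −0.60: Ptgs2, which encodes cyclooxygenase 2, with −0.95 (adjusted p = 1.29e-06) and the synaptic scaffold gene Homer1 with −0.40 (adjusted p = 2.69e-05) in the authors' deposited table. The TTX responses of Ptgs2 (1.496, SE 0.28, adjusted p = 9.68e-05) and Homer1 (0.51, SE 0.10, adjusted p = 0.000118) also differed between the arms, and the median of the 6 was 0.61. Of 15 neuron markers 1 differed between the arms in its TTX response, and the median was −0.02. This was Rbfox3, with the opposite sign, lower in shRai1 (−0.40, SE 0.09, adjusted p = 0.00485). Proliferation markers were lower in shRai1 vehicle for 2 of 5, and the 4 with a mean count of at least 50 had a median of −0.62. The part of the oligodendrocyte lineage or of network activity in the values of Glul, Sox9 and S100b was not tested. As levels in shCtrl cultures, the 14 lineage markers summed to 212 FPKM in vehicle, 186 in TTX and 211 in BIC, with 10 of 14 at 1 FPKM or more. The 15 neuron markers, all above 1 FPKM, summed to 985, 892 and 1217 FPKM. Among them Nefl was at 59.6, 45.6 and 325 FPKM, and from vehicle to BIC it rose by more than the whole sum did. Microglial markers summed to 28.0, 26.8 and 35.7 FPKM, with 6 of 11 at 1 FPKM or more, Fcrls listed at 0 and Tmem119 at 0.0763 FPKM in vehicle. Vascular and fibroblast markers summed to 4.70, 7.29 and 6.49 FPKM, with 1 of 12 at 1 FPKM or more.

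Further astrocyte genes were grouped by role to place the identity genes among them. Under TTX, 29 of 74 such genes fell over both arms and 5 rose, where 17.5% of all genes fell and 15.5% rose. Their median log2 change was −0.13 over the 60 with a count of at least 50. By arm, in the authors' deposited tables, 24 of 70 fell and 3 rose in shCtrl, where 14.9% of all genes fell and 11.8% rose. In shRai1 17 of 70 fell and 7 rose, where 16.8% of all genes fell and 13.7% rose. The medians over the same 60 were −0.24 in shCtrl and −0.07 in shRai1. Over both arms, 5 of 15 neuron markers fell and 2 rose. The GABA synthesis genes Gad1 (−0.96, SE 0.06, adjusted p = 6.69e-56) and Gad2 (−0.69, SE 0.06, adjusted p = 2.43e-26) fell. So did the synaptic gene Snap25 (−0.47, SE 0.08, adjusted p = 1.19e-07), while Camk2a rose (0.30, SE 0.05, adjusted p = 2.01e-07). The part of other cells in these values was not tested. The glutamate transporters Slc1a2 (−0.20, SE 0.06, adjusted p = 0.00427) and Slc1a3 (−0.17, SE 0.05, adjusted p = 0.00802) fell. They were among 4 of 7 uptake genes that fell, and 0 rose. Of 8 ion and water genes 2 fell, most of all the cotransporter Slc12a2 (−0.59, SE 0.07, adjusted p = 2.05e-14), and 0 rose, so the share that fell was near that of all genes. The regulators had 8 of 17 lower and 2 higher, with Stat3 at −0.36 (SE 0.06, adjusted p = 5.58e-09) and Nfib at −0.36 (SE 0.07, adjusted p = 1.53e-06). Of the reactive astrocyte genes 6 of 12 fell and 0 rose, among them those for the matrix protein tenascin C, Tnc (−0.63, SE 0.07, adjusted p = 4.47e-16), and the filament proteins nestin, Nes (−0.67, SE 0.10, adjusted p = 5.34e-10), and vimentin, Vim (−0.39, SE 0.09, adjusted p = 5.11e-05). Gfap and Vim, which encode partner filaments, thus both fell under TTX. Of 19 further markers 6 fell and 2 rose, with the thyroid hormone deiodinase Dio2 at −1.31 (SE 0.13, adjusted p = 7.43e-22) and Mmd2 at 0.47 (SE 0.06, adjusted p = 1.99e-13). Of 11 secreted synaptogenic genes 3 fell and 1 rose, again near the share of all genes that fell, with the glypican Gpc4 at −0.48 (SE 0.07, adjusted p = 1.05e-10).

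Under BIC 26 of these 74 genes were higher and 22 lower over both arms, where 22.4% of all genes were higher and 23.6% lower. Among markers of other cell types, 9 of 15 neuron markers were higher and 5 lower, with a median of 0.57, among them the neurofilament gene Nefl (2.85, SE 0.07) and Gad2, an enzyme of GABA synthesis (1.54, SE 0.07). Of the microglial markers 2 of 9 were higher and 0 lower, Cx3cr1 by 0.76 (SE 0.15, adjusted p = 2.82e-06). Of 13 oligodendrocyte-lineage markers 2 were lower and 0 higher. The microglial and oligodendrocyte counts did not exceed the shares of all genes that moved that way, while both neuron counts did. The part of these cells in the values below was not tested. Of the genes for ion and water handling 5 of 8 were lower and 1 higher, with a median of −0.38 over the 7 with a count of at least 50. The potassium channel Kcnj10 changed by −0.80 (SE 0.06, adjusted p = 2.33e-34), and the sodium pump subunit Atp1b2 by −0.73 (SE 0.09, adjusted p = 7.30e-16). Aqp4 and Slc4a4 among the identity genes fell as well. Of the uptake genes 2 of 7 were higher and 2 lower, close to the shares over all genes. The GABA transporter Slc6a11 changed by −0.58 (SE 0.07, adjusted p = 4.73e-16) and the glutamine transporter Slc38a3 by −0.53 (SE 0.08, adjusted p = 7.70e-10). Glud1, whose product glutamate dehydrogenase breaks glutamate down, rose by 1.08 (SE 0.06, adjusted p = 4.08e-69), while Glul, which turns glutamate into glutamine, fell. The FGF receptor genes Fgfr2 and Fgfr3 moved apart, since Fgfr2 rose by 1.21 (SE 0.05, adjusted p = 1.13e-118) and Fgfr3 fell.

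Of the secreted synaptogenic genes 6 of 11 were higher under BIC and 1 lower, where 22.4% of all genes were higher and 23.6% lower. The 8 with a count of at least 50 had a median of 0.52. Thbs1, which encodes thrombospondin 1, rose by 2.68 (SE 0.08, adjusted p = 7.28e-225), and Tgfb2, a transforming growth factor, by 1.12 (SE 0.06, adjusted p = 2.90e-68). Of the reactive genes 4 of 12 rose and 1 fell, with Tnc at 2.099 (SE 0.07, adjusted p = 4.37e-175), Vim at 0.36 (SE 0.09, adjusted p = 0.000209) and Serpina3n at −0.62 (SE 0.17, adjusted p = 0.000858). The regulators had 7 of 17 higher and 8 lower. Among them the Notch effector Rbpj rose by 0.93 (SE 0.06, adjusted p = 9.65e-50), beside Sox9, and Nfix, whose interval overlaps that of Lyl1, fell by 0.76 (SE 0.07, adjusted p = 2.62e-28). Of 19 further markers 6 rose and 5 fell, with Dio2 at 1.24 (SE 0.13, adjusted p = 3.52e-21) and Mmd2 at −0.73 (SE 0.07, adjusted p = 2.20e-26). Dio2 and Mmd2 thus had opposite signs under the 2 drugs. Several of these genes, such as Glud1, Fgfr2 and Tgfb2, are not restricted to astrocytes, and the cell type behind their change was not resolved.

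**Figure D4:**
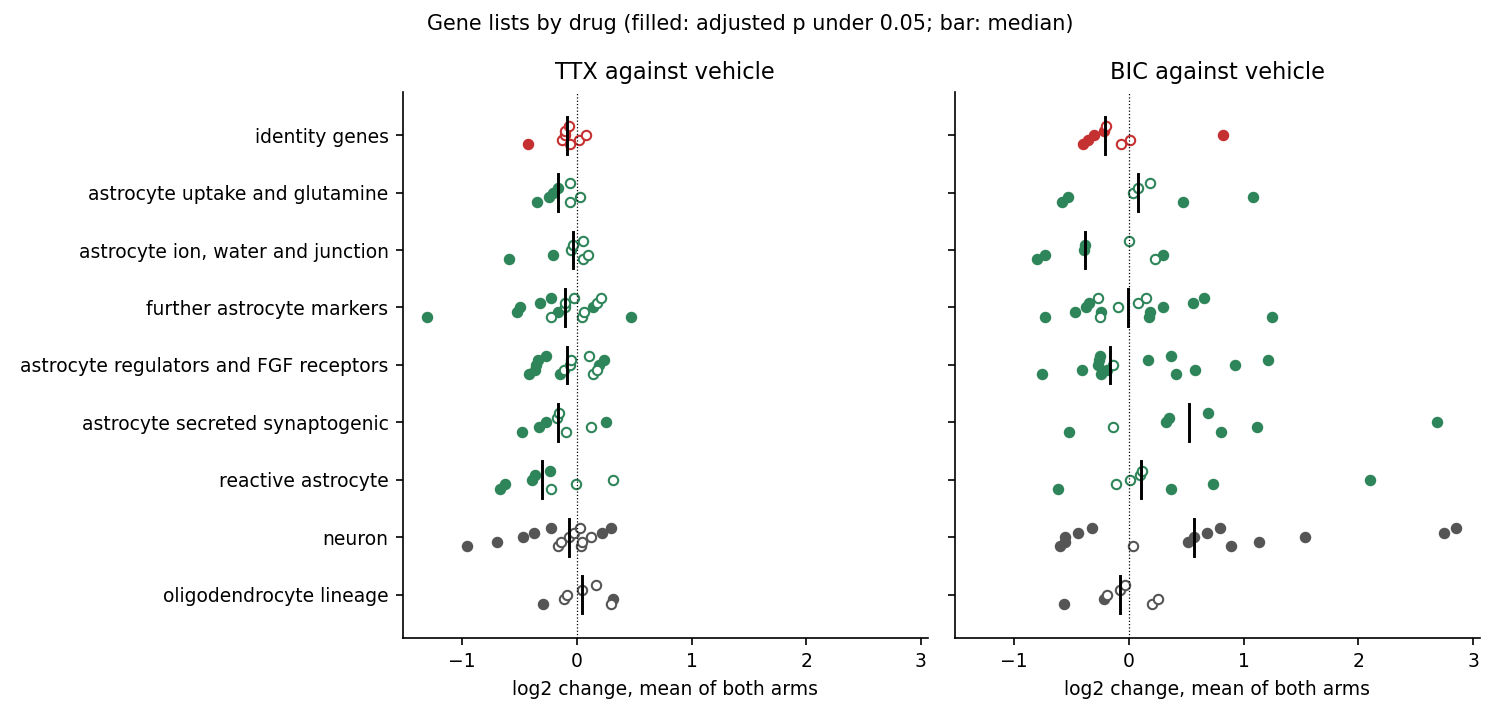
Log2 change averaged over both arms under TTX (left) and BIC (right) against vehicle, with 1 point per gene whose mean normalized count was 50 or more, grouped by list. Filled points have an adjusted p under 0.05 and the black bar is the median of the list. The identity genes (top, red) have a median of −0.09 under TTX and −0.21 under BIC, with Sox9 as the point at 0.82.

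For the shRNA in vehicle 5 of 65 further astrocyte genes were lower and 0 higher in the authors' deposited table, where 0.730% of all genes were lower. The median was −0.12 over the 60 with a count of at least 50. In the same comparison 4 of 10 oligodendrocyte-lineage markers, 2 of 5 proliferation markers and 2 of 6 activity-regulated genes were lower. Their medians over genes with a count of at least 50 were −0.78, −0.62 and −0.60 in the authors' deposited table, and their part in the values that follow was not tested. The astrocyte genes that passed were Kcnj10 (−0.37, SE 0.09, adjusted p = 0.00787), Acsbg1 (−0.44, SE 0.10, adjusted p = 0.0038), Slco1c1 (−0.57, SE 0.12, adjusted p = 0.00183), Aldoc (−0.56, SE 0.15, adjusted p = 0.0392) and Ppp1r3c (−0.37, SE 0.11, adjusted p = 0.0458) in the authors' deposited table. Of 77 further astrocyte genes, 0 passed for the shRNA in TTX and 0 in BIC by the authors' DESeq2 test, where 0.0283% and 0.00944% of all genes did, too few for a count of 0 to say anything of these genes.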

How the data were processed

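Bru-seq comparisons of 6 groups were read from 7 tables that the authors made with DESeq2, per the file headers and the submitters' processing notes, which also name TopHat2 2.1.0, Bowtie2 2.2.6 and mm9. Each deposited table holds a mean normalized count, a signal averaged over all libraries, with the log2 change and SE, the Wald score and both p-values (raw and adjusted), per the file headers. A further table holds 1 FPKM per condition, pooled by the authors over libraries, per the file headers. Total counts per library were not in the files used here, so depth is known only through the mean normalized counts, whose median over tested genes was 107, and no interval per sample could be given. The knockdown FPKM columns did not follow their names: the column named for TTX had a correlation across 12311 genes of −0.63 with the TTX and 0.76 with the BIC comparison. They entered only the mean over 6 conditions used as a filter. The vehicle knockdown table has no gene column, and its rows were named by their mean count, which left 1085 of 21192 unnamed.

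Responses averaged over arms, the shRNA effect averaged over treatments and the differences between arms were computed here from contrasts that share no library, with SE as the root of the summed squared SEs, a two-sided Wald test and Benjamini-Hochberg adjustment over 18241 genes at a mean FPKM of 0.1 or more. Genes with an adjusted p under 0.05 are said to pass. On simulated data with 200 genes changed by a log2 of 1, recovery was 100% for the averages and 87.5% (TTX) or 88.5% (BIC) for the differences between arms. The noise was drawn from the same SEs that the test used, so this checked the calculation and not the SEs. The changed genes had a mean count of at least 50, and their change exceeded every combined value of the identity genes. Recovery of changes as small as theirs was not measured. Alternatives were other thresholds, filters, centring and errors. Python 3.11.15, pandas 2.3.3, SciPy 1.17.1 and Matplotlib 3.10.9 were used. The plan had allowed for counts per library and a fit with edgeR, which these summaries do not permit. Named genes were the 10 identity genes, Rai1 and up to 4 per list and comparison by smallest adjusted p among those that passed with a mean count of at least 50, beside absent microglial markers. The identity genes, lists and tests were chosen with earlier results of these data known. Replicates were separate pools of embryos, per the series' design text, which does not say whether a replicate number shared by groups marks the same pool. Values of 2 listed genes are not reported here.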

Additional observations from a re-analysis of the deposited data

Results flagged for a closer look

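For 1 of 10 identity genes and 4 of 74 further astrocyte genes the response to TTX differed between the shRNA arms by the Wald test of the difference itself, adjusted over 18241 genes, of which 0.943% passed. For Glul the shRai1 response minus the shCtrl response was 0.40 on the log2 scale. For Kcnj10, the inward rectifier potassium channel of astrocytes, it was 0.48 (SE 0.12, adjusted p = 0.0109). For Acsbg1, an acyl-CoA synthetase, it was 0.65 (SE 0.13, adjusted p = 0.000584), and for Slco1c1, a thyroid hormone transporter, it was 0.91 (SE 0.16, adjusted p = 3.66e-05). Htra1, a secreted protease, had the opposite sign, with −0.50 (SE 0.13, adjusted p = 0.0244). Kcnj10, Acsbg1, Slco1c1 and Glul were also among the genes lower in shRai1 vehicle, a comparison that shares its libraries with this one. Genes of other lists had TTX responses that differed between the arms as well. Higher in shRai1 were 6 of 13 oligodendrocyte-lineage markers, with a median of 1.101 over the 7 with a count of at least 50. So were 2 of 6 activity-regulated genes, with a median of 0.61, and 1 of 5 proliferation markers, Mki67, with 1.32 (SE 0.32, adjusted p = 0.0109). Of 15 neuron markers 1 was lower in shRai1, Rbfox3, with −0.40 (SE 0.09, adjusted p = 0.00485), and 0 were higher. The part of these cells and of network activity in the values of Glul, Kcnj10, Acsbg1, Slco1c1 and Htra1 was not tested.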

How the results depend on the processing

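No paired analysis was possible because values per library are not in the files used here, and for the same reason the planned fits that leave out each replicate were not run. Among values of single identity genes, 580 of 596 kept their direction and their side of the threshold over the alternatives, 9 no longer passed, 4 newly passed and 3 changed sign. The changes of sign came with centring on the median gene, in values near 0 that did not pass: Aldh1l1 (0.0075) and Gjb6 (0.018) under BIC in shCtrl, and Slc4a4 (−0.00033) in the difference in BIC response. Counts of identity genes that passed moved by more than 1.5 times in 3 comparisons. For TTX in shRai1 the count of 2 became 0 at an adjusted p under 0.01, 4 under 0.1, and 1 with adjustment over all tested genes, where Aqp4 had an adjusted p of 0.0591. For the shRNA in vehicle and for the difference in TTX response, Glul did not pass at 0.01, so each count of 1 became 0. Slc4a4 under BIC in shRai1 did not pass after centring on the median gene (−0.18, adjusted p = 0.0606). The centring moved values by at most 0.044. Counts over the further astrocyte genes fell at 0.01 from 27 to 17 for TTX in shCtrl, from 5 to 3 for the shRNA in vehicle (also 3 with adjustment over all tested genes at 0.05) and from 4 to 2 for the difference in TTX response. With 2 libraries in shCtrl vehicle and in shCtrl BIC, and a mean count under 10 for S100b and Gjb6, small responses of those genes could not be seen.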
